A study of Mus musculus with 16 samples.

Results

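The RNAs described here are 10 long noncoding RNAs (lncRNAs) that stay in the nucleus or come from imprinted loci, namely Malat1, Neat1, Miat, Sox2ot, Rmst, Kcnq1ot1, Meg3, Rian, Mirg and H19. They were chosen by name, as the genes of the count table whose identifier carries these symbols in the GENCODE mouse annotation, and 10 of the 53379 genes in the table met that rule. The study asked which RNAs are recovered with the transcription factor Sox2 from embryonic stem cells of a male mouse (mESC), cultured in serum with LIF and the inhibitors PD0325901 and CHIR99021, which hold the cells in the pluripotent state. The labels name no transgene and no gene deletion in these cells, and all groups share the same culture. Cells were crosslinked either with formaldehyde (fRIP, which also joins proteins to one another) or with UV light (UV-RIP, which joins protein to RNA in direct contact), and Sox2 was immunoprecipitated (IP) with an antibody. Each IP library had an input library from the same lysate, so that the series held 4 groups of 4 libraries, fRIP IP, fRIP input, UV-RIP IP and UV-RIP input, with replicates numbered 3 to 6 from separate culture plates. No IP with a control antibody was analysed here, so a ratio of IP to input measures recovery in the whole procedure and not recovery by the antibody alone.

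Long noncoding RNAs of this kind act where they are made or in nuclear bodies. Malat1 is an abundant RNA of nuclear speckles, the compartments that store splicing factors, and Neat1 is the scaffold on which paraspeckles form. Miat is a nuclear RNA best known from neurons. Sox2ot is a long transcript whose body contains the Sox2 gene, and Rmst is a neural lncRNA known as a partner of the SOX2 protein. The other members are imprinted, that is, expressed from only the copy inherited from a given parent. Kcnq1ot1 is made from the paternal copy, runs antisense through the potassium channel gene Kcnq1 and silences genes around it. Meg3, Rian and Mirg are made from the maternal copy of the Dlk1-Dio3 domain and carry many small RNAs in their bodies, and H19 is the maternal partner of the growth factor gene Igf2.

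The members differ widely in their gene models, and these set what a count can hold. Positions are those of GENCODE vM21 on GRCm38. Malat1 (chr19:5795690-5802672, minus strand) and Neat1 (chr19:5824708-5845478, minus strand) lie 22035 bases apart, and annotated exons cover 100% of each. Kcnq1ot1 (chr7:143203458-143296549, minus strand) is covered in the same way, and H19 (chr7:142575529-142578143, minus strand) lies 625314 bases away from it on the same chromosome. Meg3 (chr12:109541001-109571726), Rian (chr12:109603940-109661716) and Mirg (chr12:109729764-109749460) follow each other on the plus strand with gaps of 32213 and 68047 bases. Sox2ot (chr3:34104270-34682619, plus strand) spans 578350 bases, of which exons make up 2.00%, and Rmst (chr10:92071037-92165170, minus strand) has exons over 7.89% of its span. Miat lies on chr5:112213228-112229395, minus strand. The counts were made over gene bodies, introns included, so that for Sox2ot, Rmst, Rian, Mirg, Meg3 and Miat they include unspliced RNA. Malat1, Neat1 and Kcnq1ot1 matched this annotation by identifier but not by version, and the length the table gives for Kcnq1ot1, 84395 bases, differs from the annotated span of 93092 bases.

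Small RNA genes inside the members held no counts. Of the 63 annotated genes that lie wholly within a member on its own strand, 63 were at 0 UMIs in all 16 libraries, among them 24 microRNA genes, 13 snoRNA genes and Sox2 itself. Across the whole table, 385 of 385 protein-coding genes lying inside another gene of the same strand were at 0 (100%), against 20.6% of 709 that lie only inside a gene of the opposite strand and 14.4% of 18475 that lie in no other gene. The value of 0 for Sox2 is therefore no check of the pulldown or of the cells, and the sources used here do not say how reads in overlaps were assigned, so whether the counts of Sox2ot hold any reads of Sox2 mRNA is not known. Genes on the opposite strand held few UMIs beside Malat1 and Kcnq1ot1. Gm37376 held between 0.016% and 0.040% as many UMIs as Malat1, and Kcnq1 between 1.74% and 3.78% as many as Kcnq1ot1. For Miat, Gm26953 on the other strand held between 3.64% and 50.0% as many UMIs, and since the strand setting of the counting is not stated, the low counts of Miat are less certain.

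By position, 42 mature microRNA sequences of RefSeq (GRCm38.p6) lie inside 6 of the members on the same strand: 26 in Mirg, 6 in Rian, 4 in Rmst, 3 in Meg3, 2 in H19 and 1 in Sox2ot. They are the products that these RNAs are known to carry and that the counts do not show. Their seeds, bases 2 to 8 from the 5′ end, are what pairs with target RNAs, and 41 of the seeds are distinct. The only seed found more than once is shared by miR-453 and miR-496a-5p, both in Mirg. The sequences below show that pair and the microRNAs of H19 (miR-675), Meg3 (miR-770) and Rian (miR-370), each 5′ to 3′ with the seed in capitals.
miR-675-5p: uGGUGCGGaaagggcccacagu
miR-675-3p: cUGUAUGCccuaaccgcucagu
miR-770-5p: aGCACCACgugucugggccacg
miR-770-3p: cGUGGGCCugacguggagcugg
miR-370-5p: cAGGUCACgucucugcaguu
miR-370-3p: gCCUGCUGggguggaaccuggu
miR-453: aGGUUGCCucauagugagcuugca
miR-496a-5p: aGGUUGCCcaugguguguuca

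RefSeq gives a promoter window, from 250 bases before to 50 bases after the start, that holds the GENCODE start of 4 members, Malat1, Kcnq1ot1, Meg3 and Rian. The windows of Meg3 and Rian are shown because these genes lie in 1 imprinted domain and both had a higher level in the fRIP input than in the UV-RIP input, as described further on. A pair of motifs was searched on both strands, the cAMP response element TGACGTCA and ACAAT, the core letters of many SOX sites on DNA. Of 32851 promoter windows, 1.79% hold the former and 31% the latter. In the lines that follow, Meg3 is chr12:109540746-109541045 and Rian is chr12:109603695-109603994, both on the plus strand of GRCm38, and capitals mark a motif match.
Meg3: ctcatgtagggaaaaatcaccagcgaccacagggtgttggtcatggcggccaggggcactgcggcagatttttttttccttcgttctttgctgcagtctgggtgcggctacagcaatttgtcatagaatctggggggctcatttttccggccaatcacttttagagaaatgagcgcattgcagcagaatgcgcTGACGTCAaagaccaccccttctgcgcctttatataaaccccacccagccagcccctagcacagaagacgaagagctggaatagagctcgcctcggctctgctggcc
Rian: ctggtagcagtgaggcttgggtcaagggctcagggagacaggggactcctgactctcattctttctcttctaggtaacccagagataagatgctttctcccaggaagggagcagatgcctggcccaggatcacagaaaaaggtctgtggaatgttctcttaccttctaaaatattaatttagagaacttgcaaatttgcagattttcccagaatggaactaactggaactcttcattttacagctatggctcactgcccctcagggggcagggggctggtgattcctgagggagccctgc
The Meg3 window holds 1 TGACGTCA and no ACAAT, and the Rian window holds neither. CG, the dinucleotide that carries DNA methylation, occurs 13 times in the Meg3 window and 0 times in that of Rian, against a median of 7 over all windows. The Kcnq1ot1 window has 9 CG and 1 ACAAT, and the Malat1 window 10 CG and neither motif. A match is only a run of letters in this window.

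Depth was similar within groups. The fRIP libraries held between 13627606 and 21211537 UMIs and the UV-RIP libraries between 12456298 and 17281596, and levels are given as CPM, the UMIs of a gene scaled to the total of its library. Together the 10 members took between 0.414% and 0.656% of a library, and Malat1 alone made up between 71.1% and 86.3% of that. The cells carried their label: 9 of 10 pluripotency genes, all but Sox2, averaged 1 CPM or more in every group, with a sum between 2013 and 4498 CPM. Fibroblast markers summed to between 1.56 and 3.30 CPM and germ-layer markers to between 5.79 and 10.6 CPM. Neural markers summed to between 190 and 321 CPM, of which Mapt made up between 153 and 290 CPM, Map2 14.7 to 33.9, Nes 12.2 to 18.8 and Pax6 at most 3.71 CPM. Dcx and Neurog2 held at most 2 UMIs in any library, and the values of 0 for Sox1 and Tubb3, which lie inside Sox1ot and Gm20388 of the same strand, are no check of the cells, like that of Sox2. The ribosomal-RNA-like locus Gm26917 took between 18.4% and 22.3% of the UV-RIP IP libraries, 12% to 12.3% of the UV-RIP inputs and 5.44% to 12.4% of the fRIP libraries, and this share moves every CPM of the UV-RIP IP. Library size in the tests was the sum of the UMIs assigned to genes in the table. The study scaled to the UMIs of all its uniquely mapped reads, which may include reads outside genes and are not used here.

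**Figure D1:**
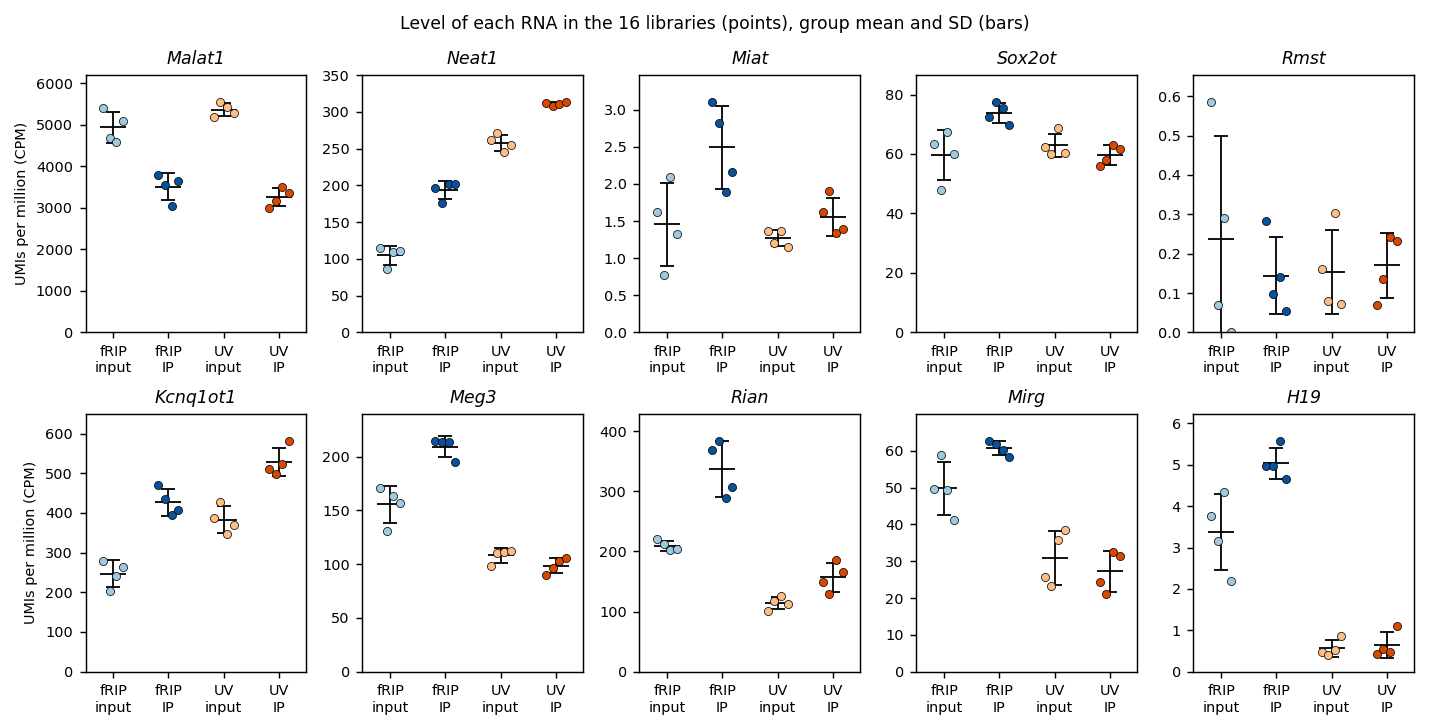
Level of the 10 lncRNAs in each of the 16 libraries. The vertical axis of each panel is CPM (UMIs scaled to the library total) from 0, points are libraries of the 4 groups, and bars are the mean and SD of 4 libraries. Malat1 lies lower in both IP groups than in their inputs, Neat1, Kcnq1ot1 and Rian lie higher, and H19 is between 4.65 and 5.56 CPM in the fRIP IP but no higher than 1.10 CPM in any UV-RIP library.

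Per kilobase of gene, Malat1 stood far above the rest before any pulldown. In the UV-RIP input its level was 767 ± 22.6 CPM per kilobase (SD, n = 4). Neat1 followed with 12.4 ± 0.53, then Kcnq1ot1 with 4.54 ± 0.41, Meg3 with 3.52 ± 0.22, Rian with 1.97 ± 0.18 and Mirg with 1.57 ± 0.38 CPM per kilobase (SD, n = 4 each). The lower end was held by H19 (0.22 ± 0.079), Sox2ot (0.11 ± 0.0069), Miat (0.079 ± 0.0067) and Rmst (0.0016 ± 0.0011). Neighbours in this order did not overlap between libraries except Rian and Mirg. In the fRIP input the order began with Malat1 at 708 ± 53.4 CPM per kilobase, and Meg3 (5.06 ± 0.56) and Neat1 (5.05 ± 0.61) followed with overlapping values. Rian (3.62 ± 0.15), Kcnq1ot1 (2.93 ± 0.39), Mirg (2.53 ± 0.37) and H19 (1.29 ± 0.35) came next, with Kcnq1ot1 and Mirg overlapping, and Sox2ot (0.10 ± 0.014) overlapped Miat (0.090 ± 0.034). Because the length is that of the gene body, genes with long introns stand lower on this scale than their spliced RNA would.

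**Figure D2:**
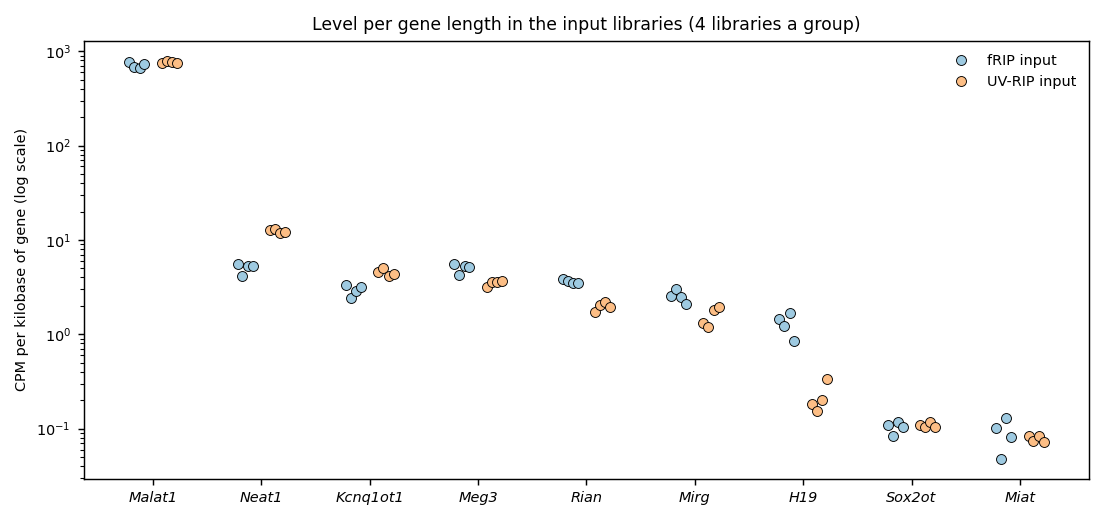
Level of 9 lncRNAs in the input libraries, in CPM per kilobase of gene on a log axis, with 1 point per library and Rmst left out for its low counts. Malat1 is above 600 in every library, Neat1 and Kcnq1ot1 lie lower in the fRIP inputs, and Rian, Mirg, Meg3 and H19 lie higher there.

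Rmst was at the limit of detection. Its counts in replicates 3, 4, 5 and 6 were 5, 2, 3 and 1 UMIs in the fRIP IP, 9, 1, 4 and 0 in the fRIP input, 1, 2, 4 and 4 in the UV-RIP IP and 1 to 4 in the UV-RIP input (2, 1, 4 and 1). The library with 0 had a floor of 3 UMIs, or 0.22 CPM, which covers counting error only, and no IP group lay apart from its input. No fold change is given for it.

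After formaldehyde crosslinking, 5 of the 9 members with a mean of 10 UMIs or more were enriched in the Sox2 IP, namely Neat1, Kcnq1ot1, Rian, Miat and H19, where enriched means more than 1.5-fold higher with an adjusted p under 0.05. By edgeR and by DESeq2, 0 were depleted by the mirror of this, although Malat1 was lower in the IP by less than the fold asked for. Of all 22936 genes tested, 8.8% were enriched and 10.7% depleted. Without the fold threshold 8 members passed upward and 1 downward, beside 17.6% and 21.9% of all genes. The median log2 fold change was 0.59 over the 9 members and -0.03 over all genes. Unless DESeq2 is named, p-values come from the quasi-likelihood test of edgeR, adjusted by Benjamini-Hochberg over these 22936 genes, with lysate as a block wherever IP and input are compared. The SEs and p-values of that test draw on a spread pooled across genes, so they do not give the spread of a gene's own pairs.

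Neat1, the paraspeckle scaffold, was higher in the fRIP IP in 4 of 4 pairs. In replicates 3 to 6 it had 196, 176, 202 and 202 CPM in the IP and 115, 86.3, 109 and 110 CPM in the input, so the groups did not overlap. Its log2 fold change was 0.89 (SE 0.08, adjusted p = 2.58e-09), a 1.85-fold enrichment. Kcnq1ot1, the silencing RNA of the Kcnq1 domain, had 470, 435, 394 and 407 CPM in the IP and 280, 204, 240 and 265 CPM in the input. The groups were again apart, with a log2 fold change of 0.79 (SE 0.08, adjusted p = 2.73e-08). Removal of a trend of fold change on gene length lowered this value to 0.47, under the 1.5-fold line.

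Rian was the member of the Dlk1-Dio3 domain that passed the threshold. It had 369, 383, 289 and 307 CPM in the IP and 220, 212, 202 and 203 CPM in the input, a log2 fold change of 0.68 (SE 0.08, adjusted p = 1.36e-07) with no overlap. Its neighbours on the same strand passed the test of p but not the fold, and their difference from Rian was not tested. Meg3 had 214, 214, 214 and 195 CPM in the IP and 171, 131, 163 and 157 CPM in the input, and its log2 fold change of 0.43 (SE 0.08, adjusted p = 1.01e-04) lay under the fold threshold. Mirg had 62.5, 61.7, 60.1 and 58.2 CPM in the IP and 49.7, 58.9, 49.3 and 41.2 CPM in the input, so that input replicate 4 lay inside the range of the IP, and its log2 fold change was 0.29 (SE 0.08, adjusted p = 0.00686). Without replicate 6 Mirg was at 0.23 and did not pass (adjusted p = 0.118). With the trend on gene length removed, Rian was at 0.44 and no longer past the fold threshold.

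Malat1, the speckle RNA, went the other way from its chromosomal neighbour Neat1. Its level was 3793, 3548, 3053 and 3643 CPM in the fRIP IP and 5398, 4691, 4593 and 5094 CPM in the input. Every IP library was below every input library, and the log2 fold change was -0.50 (SE 0.07, adjusted p = 2.12e-06), or 1.41-fold lower. For each UMI of Malat1 there were 0.021 ± 0.0022 UMIs of Neat1 before the pulldown and 0.056 ± 0.0074 after it (SD, n = 4 each), with no overlap between the groups.

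The remaining enriched members rested on few UMIs. H19 had 88, 102, 118 and 84 UMIs in the IP and 58, 45, 60 and 30 UMIs in the input, or 4.65 to 5.56 against 2.20 to 4.34 CPM. The groups did not overlap, and the log2 fold change of 0.59 (SE 0.15, adjusted p = 0.00279) lay just above the 1.5-fold line of 0.58 on the log2 scale. Without replicate 6 it was 0.46, without replicate 4 it was 0.56 and without the replicate block 0.58, each under that line. Miat had 55, 58, 40 and 39 UMIs in the IP and 25, 11, 29 and 18 UMIs in the input. In 3 of 4 pairs the IP held more, its CPM overlapped between the groups, and its log2 fold change was 0.78 (SE 0.25, adjusted p = 0.0127). DESeq2 did not call it (adjusted p = 0.0707 with median-of-ratios scaling), and without replicate 4 the fold change was 0.49 on the log2 scale. Sox2ot, which had 72.6, 77.4, 75.5 and 69.8 CPM in the IP and 63.3, 47.9, 67.3 and 59.9 CPM in the input, passed the test of p but not the fold, at a log2 fold change of 0.32 (SE 0.09, adjusted p = 0.00578). Pair 4 had a log2 ratio of 0.69 against 0.17 to 0.22 in the other pairs, and without replicate 4 the fold change was 0.19 on the log2 scale. With the trend on gene length removed it turned to -0.28.

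**Figure D3:**
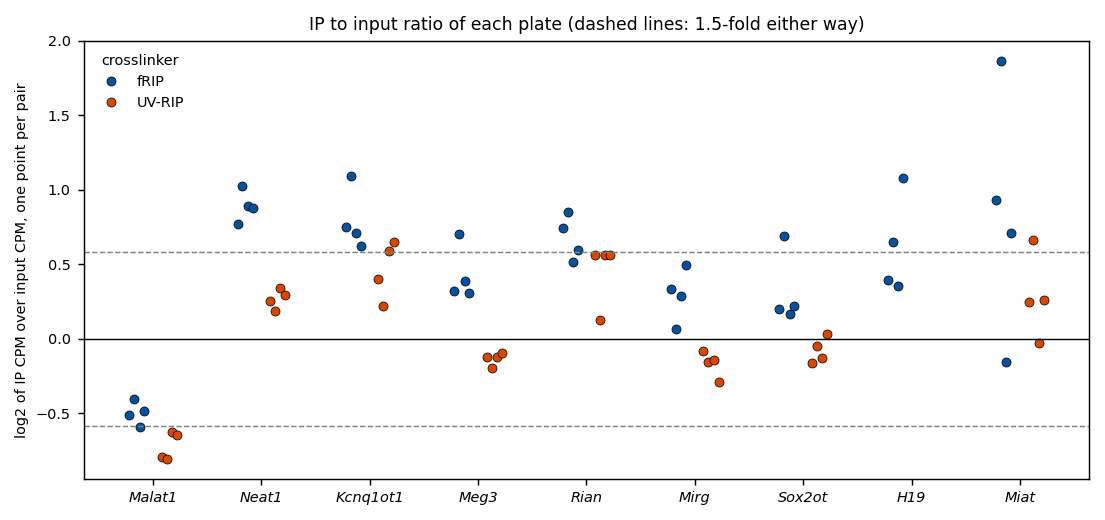
Log2 ratio of IP CPM to input CPM in each of 4 pairs from the same lysate, for fRIP and UV-RIP, with H19 shown for fRIP only and Rmst left out. Dashed lines mark 1.5-fold. Neat1, Kcnq1ot1 and Rian are above 0 in 8 of 8 pairs, Malat1 is below 0 in 8 of 8, and Meg3 and Mirg are above 0 in every fRIP pair and below 0 in every UV-RIP pair, where TMM scaling puts their fold changes at 0.05 and 0.00.

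After UV crosslinking the member past the 1.5-fold line was Malat1, which was lower in the IP. By edgeR, 0 of the 8 members with a mean of 10 UMIs or more were enriched by the 1.5-fold rule and 1, Malat1, was depleted, where 0.68% of all genes tested were enriched and 5.53% depleted. Without the fold threshold, 3 members passed the adjusted p upward (Kcnq1ot1, Rian and Neat1) and 3 downward (Malat1, Meg3 and Mirg), beside 6.6% and 29.0% of all genes. The median log2 fold change was 0.10 over the 8 members and -0.17 over all genes.

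Malat1 had 2998, 3173, 3510 and 3364 CPM in the UV-RIP IP and 5189, 5544, 5422 and 5272 CPM in the input. The groups were far apart, with a log2 fold change of -0.72 (SE 0.03, adjusted p = 1.21e-99), a level 1.64-fold lower. Kcnq1ot1 had 511, 499, 523 and 580 CPM in the IP and 387, 429, 348 and 369 CPM in the input. It did not overlap, and its log2 fold change was 0.47 (SE 0.04, adjusted p = 2.42e-33). Rian had 149, 129, 186 and 165 CPM in the IP and 101, 118, 126 and 112 CPM in the input, with a log2 fold change of 0.46 (SE 0.04, adjusted p = 5.50e-26). Pair 4 of Rian stood below the rest, at a log2 ratio of 0.13 against 0.56 to 0.57. The log2 ratios of the Kcnq1ot1 pairs ran from 0.22 to 0.65. The SE of 0.04 for each of these genes draws on a spread pooled across genes and does not give that of the 4 pairs. Neat1 had 312, 309, 310 and 313 CPM in the IP, a very narrow range, and 262, 271, 245 and 255 CPM in the input, with a log2 fold change of 0.27 (SE 0.04, adjusted p = 4.30e-11).

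For the members near 0 the sign depended on the scaling. Meg3 had 90.0, 96.6, 102 and 105 CPM in the UV-RIP IP and 98.1, 111, 111 and 113 CPM in the input, lower in the IP in 4 of 4 pairs, with a log2 fold change of -0.13 (SE 0.04, adjusted p = 0.00778). Mirg had 24.3, 21, 32.4 and 31.5 CPM in the IP and 25.8, 23.3, 35.8 and 38.5 CPM in the input, again lower in 4 of 4 pairs, with a log2 fold change of -0.17 (SE 0.06, adjusted p = 0.0116). Both values lie close to the median of all genes, and TMM scaling, which moved that median from -0.17 to 0.01, put Meg3 at 0.05 and Mirg at 0.00. Without the replicate block, which pairs libraries of 1 lysate, neither passed (adjusted p = 0.0617 for Meg3 and 0.221 for Mirg), nor did Meg3 without replicate 4 (adjusted p = 0.0560) or Mirg without replicate 6 (adjusted p = 0.214). Sox2ot, with 55.9, 58.0, 62.9 and 61.7 CPM in the IP and 62.5, 60.0, 68.7 and 60.4 CPM in the input, did not pass the test (log2 fold change -0.07, 95% interval -0.17 to 0.02, adjusted p = 0.253). Neither did Miat, whose 22 to 28 UMIs in the IP and 15 to 18 UMIs in the input gave a log2 fold change of 0.29 (95% interval -0.16 to 0.73, adjusted p = 0.384). H19 had 6, 8, 8 and 19 UMIs in the IP and 6, 5, 7 and 12 UMIs in the input and is given without a fold change.

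Scaling also decided the calls at the 1.5-fold line. With TMM scaling Kcnq1ot1 (0.65) and Rian (0.64) were enriched and Malat1 (-0.54) was no longer depleted, and DESeq2 made the same calls with median-of-ratios scaling and those of edgeR with total UMIs. Library sizes taken without Gm26917 and Gm42418, a similar locus, gave 0.62, 0.61 and -0.56. The share of all genes called under these other scalings was not computed. The signs of Malat1, Neat1, Kcnq1ot1, Rian and Miat were the same under these scalings. Meg3 and Sox2ot turned positive under each of them but DESeq2 with total UMIs, and Mirg under TMM and median-of-ratios.

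**Figure D4:**
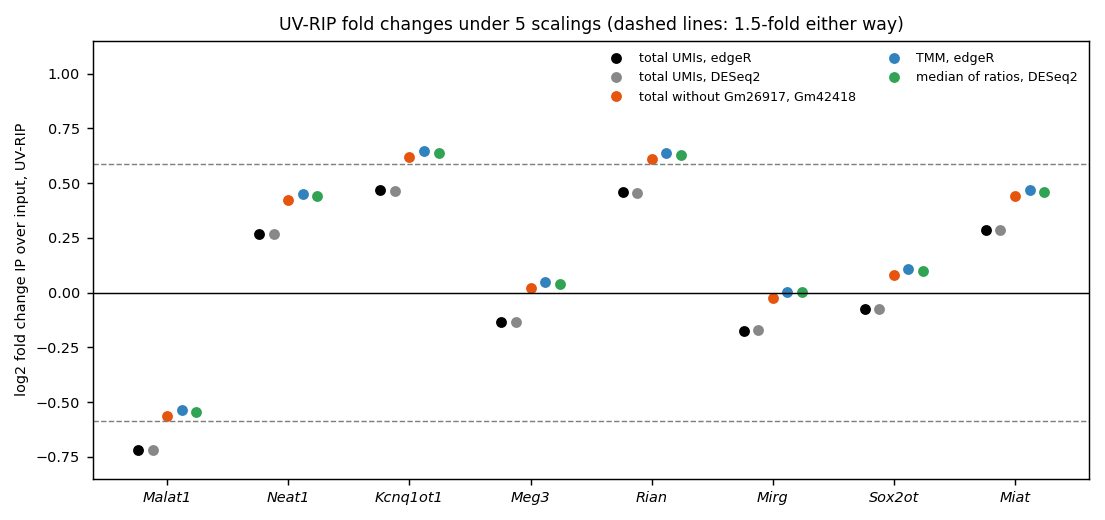
Log2 fold change of IP over input in UV-RIP for 8 lncRNAs under 5 scalings of the same counts. Each colour is a scaling and dashed lines mark 1.5-fold. Malat1 lies between -0.72 and -0.54 and moves across the lower line, while Kcnq1ot1 and Rian cross the upper line and Meg3 moves from -0.13 to 0.05.

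Whether recovery differed between the crosslinkers was tested as an interaction over all 16 libraries. The plates of the crosslinkers were separate, so crosslinker and plate cannot be told apart, and the difference is between IP to input ratios that rest on the input libraries of each. H19 is left out here and in the next comparison, because its counts reached the minimum only through fRIP. By edgeR, the ratio was higher in fRIP for 6 of the 8 members with a mean of 10 UMIs or more in each crosslinker and higher in UV-RIP for 0, at an unadjusted p too since 8 of 8 differences were above 0. Of all genes, 18.6% and 8.07% were past an adjusted p of 0.05 in these directions. The count of 6 depended on the fit, and the shares of all genes were computed for the main fit only. It was 4 with TMM scaling, 3 with library sizes without Gm26917 and Gm42418, 2 with median-of-ratios scaling in DESeq2 and 3 without the replicate block, which pairs libraries of 1 lysate. The median difference in log2 fold change, fRIP minus UV-RIP, was 0.43 over the 8 members and 0.15 over all genes.

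Neat1 differed by 0.62 (SE 0.08, adjusted p = 1.90e-06), from 0.89 in fRIP and 0.27 in UV-RIP. Meg3 differed by 0.56 (SE 0.09, adjusted p = 2.69e-05), from 0.43 in fRIP and -0.13 in UV-RIP, the latter 0.05 under TMM scaling. Its domain partner Mirg showed 0.46 (SE 0.10, adjusted p = 0.00110), whereas Rian, between them on the chromosome, did not pass at 0.22 (SE 0.10, adjusted p = 0.0989). The differences of the other members that passed were 0.39 for Sox2ot (adjusted p = 0.00551), 0.33 for Kcnq1ot1 (adjusted p = 0.0141) and 0.22 for Malat1 (adjusted p = 0.0266). Miat did not pass at its low counts (0.49, 95% interval -0.21 to 1.19, adjusted p = 0.364). Neat1 and Meg3 were past the threshold in 12 of 12 alternatives each, Mirg in 10, Sox2ot in 9, and Malat1 and Kcnq1ot1 in 5 each. Sox2ot lost the call with median-of-ratios scaling in DESeq2 (0.25, adjusted p = 0.0862) and with totals that omit Gm26917 and Gm42418 (0.26, adjusted p = 0.0613), and it turned to -0.13 with the trend on gene length removed. Mirg lost it with median-of-ratios scaling (0.32, adjusted p = 0.0563) and without the replicate block (0.46, adjusted p = 0.0967). Malat1 (0.10) and Kcnq1ot1 (0.21) lost the call under TMM scaling, which lowered the median of all genes from 0.15 to 0.03, and both lost it without replicate 3. Kcnq1ot1 lost it also without replicate 4 (0.15) and Malat1 without replicate 6 (0.24), while Rian passed without replicate 5 (0.31) and was at 0.06 without replicate 4 (adjusted p = 0.638).

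**Figure D5:**
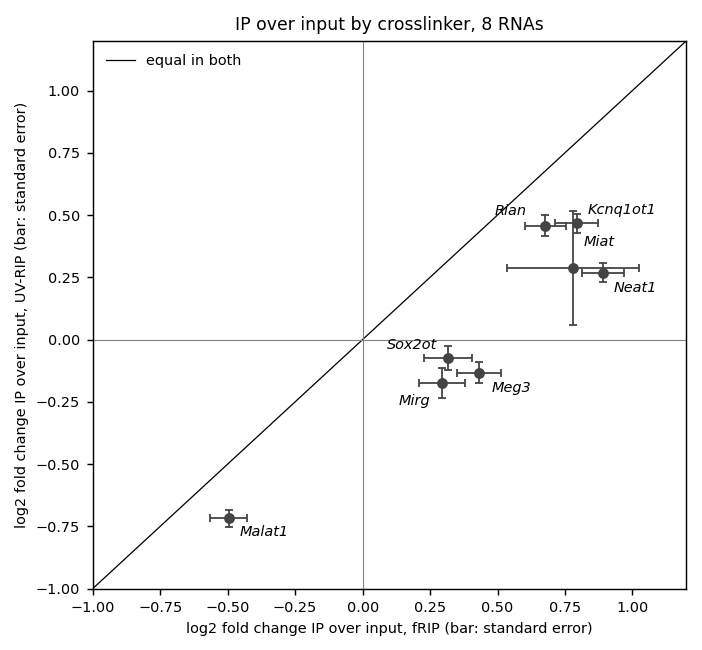
Log2 fold change of IP over input in fRIP (horizontal) and UV-RIP (vertical) for 8 lncRNAs, with standard errors as bars and a line of equal values. All 8 points lie below the line. Malat1 is negative on both axes, and Meg3, Mirg and Sox2ot are positive in fRIP and negative in UV-RIP, where TMM scaling turns their signs (0.05, 0.00 and 0.11).

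The inputs themselves differed between the crosslinkers before any IP. Of the same 8 members, 2 were higher in the fRIP input (Rian and Mirg) and 2 higher in the UV-RIP input (Neat1 and Kcnq1ot1) by more than 1.5-fold, beside 10.6% and 9.44% of all genes. The median log2 difference was 0.06 over the members and 0.03 over all genes. Neat1 had 86.3 to 115 CPM in the fRIP input and 245 to 271 CPM in the UV-RIP input, a log2 difference of -1.30 (SE 0.08, adjusted p = 3.49e-08). Kcnq1ot1 had 204 to 280 against 348 to 429 CPM, a difference of -0.63 (SE 0.09, adjusted p = 4.91e-05). Both were therefore lower in the input in which their IP to input ratio was higher, and the same fRIP input libraries enter both values.

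The maternally expressed RNAs of the Dlk1-Dio3 domain were all higher in the fRIP input. Rian had 202 to 220 CPM in fRIP and 101 to 126 CPM in UV-RIP (log2 difference 0.88, SE 0.08, adjusted p = 3.12e-07), and Mirg had 41.2 to 58.9 against 23.3 to 38.5 CPM (0.69, SE 0.14, adjusted p = 0.00110). Meg3 had 131 to 171 against 98.1 to 113 CPM and passed the test of p but not the fold (0.53, SE 0.08, adjusted p = 1.20e-04). H19, the maternal RNA of another domain, had 30 to 60 UMIs in the fRIP inputs and 5 to 12 in the UV-RIP inputs, or 2.20 to 4.34 against 0.40 to 0.87 CPM. The groups did not overlap, and no test is read from them because the UV-RIP inputs averaged 7.50 UMIs and the gene met the count minimum through fRIP. Malat1 (-0.12, adjusted p = 0.181), Sox2ot (-0.08, adjusted p = 0.572) and Miat (0.19, adjusted p = 0.629) did not pass.

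In the same input libraries the 10 pluripotency markers summed to between 3766 and 4498 CPM in fRIP and 2226 and 2388 CPM in UV-RIP, and Gm26917 took between 5.46% and 8.49% and between 12% and 12.3%. Their part in the differences of the members was not tested. Fewer cells and less RNA per cell cannot be told apart in bulk libraries. Without replicate 4, Kcnq1ot1 (-0.49) and Mirg (0.48) fell under the fold threshold and Meg3 (0.61) passed it, and the fRIP input of replicate 4 had the lowest value of its group for Neat1, Kcnq1ot1, Meg3, Sox2ot and Miat and the highest for Mirg.

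The coding genes beside the imprinted members and Sox2ot went in both directions. Of 16 such neighbours, 11 had a mean of 10 UMIs or more in fRIP. Among these, 3 were enriched (Begain, Kcnq1 and Slc22a18) and 2 depleted (Phlda2 and Dio3), beside 8.8% and 10.7% of all genes, with a median log2 fold change of -0.32 over the 11. Kcnq1, the potassium channel gene through which Kcnq1ot1 runs on the other strand, reached 12.4 ± 2.10 CPM after the fRIP pulldown from 7.13 ± 1.30 before it (SD, n = 4 each), a log2 fold change of 0.80 (adjusted p = 5.80e-06). The strand setting is not stated. Of coding genes lying only inside a gene of the opposite strand 20.6% were at 0, against 100% inside one of the same strand. The counting thus told strands apart at least in part, but how far reads of Kcnq1 and Kcnq1ot1 are mixed was not tested. The same holds for Airn, Nespas and Tsix, which are named further on and also overlap genes of the other strand. Phlda2, a growth-limiting gene that Kcnq1ot1 is known to silence on the paternal copy, was depleted, to 2.29 ± 0.46 from 4.95 ± 0.35 CPM (log2 fold change -1.11, adjusted p = 6.40e-06). Begain, at the edge of the Dlk1-Dio3 domain, was enriched in both crosslinkers, at 0.87 in fRIP (adjusted p = 2.38e-05) and 0.74 in UV-RIP (adjusted p = 2.21e-10), the only neighbour of 10 to be so in UV-RIP, beside 0.68% of all genes. Dio3, the deiodinase gene at the far end of that domain, was at -0.80 in fRIP (adjusted p = 2.35e-04).

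Of the protein-coding partners of the maternally expressed RNAs, Dlk1, Rtl1 and Ins2 held few UMIs. Dlk1, a paternally expressed signalling protein, had 3 to 14 UMIs in any library, Rtl1 at most 16 and Ins2 at most 1. Igf2 was listed at 0 in every library, but nearly all of it lies inside Gm49394 of the same strand, so that this 0 says nothing of its level. In the inputs, 10 neighbours had a mean of 10 UMIs or more in each crosslinker. Of these, 3 were higher in fRIP (Dio3, Cdkn1c and Tssc4) and by edgeR 0 in UV-RIP, also at an unadjusted p without the fold threshold, beside 10.6% and 9.44% of all genes, with a median log2 difference of 0.08. The IP to input ratio of these 10 passed the interaction test as higher in fRIP for 1 (Nap1l4, 0.22) and as higher in UV-RIP for 2 (Phlda2, -0.94, and Cd81, -0.55), beside 18.6% and 8.07% of all genes, with a median difference of -0.04.

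Other nuclear and imprinted lncRNAs gave a mixed picture. Of a list of 20, 18 were in the table and 13 had a mean of 10 UMIs or more in fRIP. There, 4 were enriched and 2 depleted, beside 8.8% and 10.7% of all genes, with a median log2 fold change of 0.07. Enriched were Tunar (1.23), a pluripotency-linked RNA, Pvt1 (0.92), the neighbour of Myc, and the imprinted antisense RNAs Nespas (0.84) and Airn (0.79). Snhg11 (-0.87) and Snhg14 (-0.75), hosts of small nucleolar RNAs, were depleted. In UV-RIP edgeR called 0 of 12 enriched and 3 depleted (Tsix, Snhg14 and Snhg11), beside 0.68% and 5.53% of all genes, with a median of -0.39. Without the fold threshold 4 passed upward and 7 downward, beside 6.6% and 29.0% of all genes. The ratio passed the interaction test as higher in fRIP for 9 of 12 and as higher in UV-RIP for 0, also at an unadjusted p, beside 18.6% and 8.07% of all genes, while Tug1 and Snhg11 were both at -0.02. The median difference was 0.46 over the 12, beside 0.43 over the 8 members. In the inputs the 12 had 0 higher in fRIP by edgeR, also at an unadjusted p without the fold threshold. Higher in UV-RIP were 4 (Tsix, Airn, Snhg14 and Nespas). Of all genes, 10.6% and 9.44% were called in these directions. Without the fold threshold 8 of the 12 were higher in UV-RIP, and the share of all genes by that rule was not computed. The median log2 difference was -0.34 over the 12 and 0.03 over all genes. Airn, like Kcnq1ot1 a paternal antisense RNA, was enriched by 0.79 on the log2 scale in fRIP, stood at 0.33 in UV-RIP and was lower in the fRIP input by 0.74 on the log2 scale, beside 0.79, 0.47 and a decrease by 0.63 for Kcnq1ot1.

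The genes whose levels ran most like a member's over the 16 libraries were coding genes. By Pearson correlation of log2(CPM + 1) among 10201 genes, these were Rbm25 (0.99) and Cpsf6 (0.98), both of RNA processing, for Malat1 and Pecam1 (0.99) and Ttc39c (0.99) for Neat1. For Kcnq1ot1 they were E2f3 (0.99) and Mecr (0.98), for Meg3 Trim71 (0.99) and Mras (0.98), for Rian Ice1 (0.98) and Prep (0.98), and for Mirg Lmo7 (0.95) and Rab31 (0.94). Sox2ot had Exosc5 (0.94) and Pml (0.93), and Miat only reached 0.89 with Adgra3. The 16 points share lysates in pairs and the crosslinker in groups, so these values describe the libraries and carry no test. Within the Dlk1-Dio3 domain the ratio of Rian to Meg3 UMIs was 1.05 ± 0.058 in the UV-RIP input and 1.59 ± 0.20 in its IP, and 1.36 ± 0.18 and 1.61 ± 0.19 in fRIP (SD, n = 4 each). The ratio of Mirg to Meg3 stayed between 0.21 and 0.45 in all 16 libraries.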

How the data were processed

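RNA from Sox2 IP and input of crosslinked mESC was ribosomal-RNA depleted and sequenced with UMI adapters. The authors mapped reads with STAR to mm10 with GENCODE vM16 and discarded those not uniquely mapped. They deposited the number of UMIs per gene body, counted with featureCounts, as counts without normalization, for 16 libraries. A gene length is also given. Versions, strand setting and overlap handling are not given in the sources used here.

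Counts were tested with edgeR 4.0.16 (R 4.3.3, quasi-likelihood) for 22936 genes (3 or more UMIs in some library), with total UMIs assigned to genes as library size. IP was compared with input with the replicate number as a block, since each number is 1 lysate by the study's methods. Deviations of same-numbered libraries correlated at 0.11 to 0.61 in fRIP and 0.030 to 0.45 in UV-RIP. The inputs were compared without a block. A call needs a fold above 1.5 and an adjusted p below 0.05, and the interaction only the latter. Fold changes need a mean of 10 UMIs, and between the crosslinkers a mean of 10 in each, a minimum added after seeing the data. Within groups, libraries differed beyond sampling noise (chi-square per degree of freedom 1.72 or more). DESeq2 1.42.0 served for alternatives. On simulated data with 200 changed genes, 100% were recovered for fRIP among 22876 genes tested and 99.5% for the inputs among 22825. The change put in was 1 on the log2 scale, in genes averaging 100 or more UMIs, with no differences between lysates. These shares therefore do not bear on smaller changes or lower counts, and false calls are not given here.

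The members, the gene lists and the tests were chosen with earlier results of these data known. Named are the members, the listed neighbours and lncRNAs, and the genes of highest correlation with a member. Gm26917, Gm42418 and the antisense genes were named after their values were seen. Names and positions are from GENCODE vM21 (50604 of 53379 genes matched with version, 2670 by identifier alone).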

Additional observations from a re-analysis of the deposited data

Results flagged for a closer look

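Recovery differed between the crosslinkers for 6 of 8 members by the interaction test of edgeR (adjusted over all genes tested), where 18.6% of all genes passed in the same direction. With TMM scaling 4 members passed, with library sizes without Gm26917 and Gm42418 3, and with median-of-ratios scaling in DESeq2 2. The share of all genes passing under these alternatives was not computed. The log2 fold change was larger in fRIP by 0.62 for Neat1, 0.56 for Meg3, 0.46 for Mirg, 0.39 for Sox2ot, 0.33 for Kcnq1ot1 and 0.22 for Malat1, with 4 pairs in each crosslinker. For Meg3 and Mirg, 4 of 4 pairs were above 0 in fRIP and, with library totals as size, 4 of 4 below 0 in UV-RIP, where TMM scaling put the fold changes at 0.05 and 0.00. The median difference over all genes was 0.15, and it was 0.03 under TMM scaling.

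In 4 of 51 sets of 4 values, 1 value lay apart from the others by Dixon's test, which chance does in about 1 of 20 sets. Meg3 was at 195 CPM in fRIP IP replicate 6, where the others were at 214, and at 98.1 CPM in UV-RIP input replicate 3, where the others were at 111 to 113. The log2 ratio of IP to input in pair 4 was 0.69 for Sox2ot in fRIP, against 0.17 to 0.22 in the other pairs, and 0.13 for Rian in UV-RIP, against 0.56 to 0.57.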

How the results depend on the processing

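The numbers of members called were recomputed under each alternative. Shares of all genes called were computed for the main fits only, and for IP against input also without the fold threshold. Counts of members under the other alternatives therefore have no matching share of all genes. In fRIP, 5 of 9 were enriched and 0 depleted. There were 3 enriched with the gene-length trend removed, 8 enriched and 1 depleted without the fold threshold, and 3 to 5 enriched when a replicate was left out, 3 of them without replicate 4. In UV-RIP, 0 of 8 were enriched and 1 depleted. With TMM scaling, with DESeq2's median-of-ratios and with Gm26917 and Gm42418 left out of library sizes, each time 2 were enriched and 0 depleted, and without the fold threshold 3 and 3. Between the crosslinkers, the 8 members with a mean of 10 UMIs in each are counted, a minimum added after seeing the data that leaves out H19. For the difference, 6 passed, against 2 with DESeq2's median-of-ratios, 3 with library sizes without Gm26917 and Gm42418 and 4 to 7 when a replicate was left out. Without the replicate block, which pairs libraries of 1 lysate, 3 passed there, 4 were enriched in fRIP as H19 lost its call, and the UV-RIP calls were the same. In the inputs, 2 were higher in fRIP, against 3 without the fold threshold and 3 with the gene-length trend removed, and 2 were higher in UV-RIP, against 1 with the gene-length trend removed and 1 to 2 when a replicate was left out.

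Some directions turned. In UV-RIP, Sox2ot was at 0.11 with TMM, 0.10 with median-of-ratios and 0.078 without the 2 loci, Meg3 at 0.048, 0.040 and 0.021, and Mirg at 0.0015 with TMM and 0.0019 with median-of-ratios. With the gene-length trend removed, Sox2ot was at -0.28 in fRIP, -0.13 in the difference and 0.46 between the inputs, and Rian at -0.0090 in the difference. Of the alternatives of single members, 113 of 126 in fRIP, 90 of 112 in UV-RIP, 75 of 96 for the difference and 89 of 96 for the inputs kept direction and side of the threshold. Why the others changed was not tested. Low counts limit Rmst, H19 in UV-RIP and Miat.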

Other observations

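Among the other lncRNAs, Lncenc1 and Firre stayed under the 1.5-fold line in both crosslinkers, as did Ftx, Tug1 and Dleu2. Lncenc1, an RNA of naive mESC, had a log2 fold change of 0.43 in fRIP (adjusted p = 5.31e-05 from edgeR) and -0.01 in UV-RIP (adjusted p = 0.878). Firre, a nuclear RNA of the X chromosome, was at 0.07 in fRIP (adjusted p = 0.531) and -0.35 in UV-RIP (adjusted p = 3.66e-18). The difference between the crosslinkers passed at 0.45 for Lncenc1 (adjusted p = 1.75e-04) and 0.43 for Firre (adjusted p = 4.40e-04). It passed also for Ftx (0.40) and Dleu2 (0.56) but not for Tug1 (-0.02).

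On the strand opposite to the members, 16 annotated genes lie wholly inside them. Of these, 8 were above 0 in some library, with 305 UMIs over all 16 libraries, and Gm37376 inside Malat1 held 254 of these.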
